A study of Mus musculus with 18 samples.

Results

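The genes described here are 10 transcription factor genes that set the fate of a mature B cell: Pax5, Ebf1, Spib, Id3, Bach2, Bcl6, Irf4, Irf8, Prdm1 and Xbp1. They were chosen by name, each as the row of its mouse Entrez gene, and make up 10 of the 28096 genes counted. All 10 passed the filter on low counts and were among the 14161 genes tested. RNA was sequenced from B cells of the spleen of wild-type (WT) mice and of Ubqln1-/- mice, in which Cre had removed exon 2 of the gene for Ubiquilin-1, a ubiquitin-binding protein chaperone, in the embryonic stem cells from which the line was made, so that no cell of the animal carries it. Each genotype was measured in 3 conditions, with 3 libraries each and 18 in all. Resting cells received no stimulus, anti-IgM cells received 10 μg/mL of an F(ab)2 antibody against the B cell receptor, and LPS cells received 20 μg/mL of lipopolysaccharide from K12 E. coli. All 6 groups shared the C57BL/6 N strain, an age of 8 weeks or more, the bead isolation of B cells and 4 hr of culture, and the wells of 1 sample were pooled before the RNA was purified. The labels do not say whether the 3 libraries of a group came from different mice, so the p-values measure the spread between these samples. The comparisons ask how each stimulus moved the mRNA of the fate factors by 4 hr, and whether the loss of Ubiquilin-1 altered its level or its response. The counts hold no measure of protein.

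Mature B cells are held in their identity by Pax5 and Ebf1, which switch on B cell receptor and surface genes, together with the ETS factor Spib. Bcl6 and Bach2 are repressors that keep an activated cell from becoming an antibody-secreting plasma cell, with Bcl6 known for the germinal centre. Irf4 is induced by antigen and by Toll-like receptor ligands and at high dose drives plasma cell formation, while its relative Irf8 favours the B cell state. Prdm1 encodes Blimp-1, the repressor that shuts off the B cell programme, Xbp1 builds the secretory apparatus behind it, and Id3 blocks the E proteins that cooperate with Ebf1 and Pax5. Anti-IgM acts through the antigen receptor and LPS through Toll-like receptor 4.

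The libraries held between 15368941 and 41072854 counts, with a median of 23257531. Ubqln1 itself, counted over the whole gene rather than over the deleted exon, lay between 62.2 and 92.0 RPKM in the 9 WT libraries and between 24.8 and 34.8 RPKM in the 9 Ubqln1-/- libraries, so that the genotypes did not overlap. RPKM here is the read count per length of the gene in the files and per size of the library, with the library size scaled by a TMM factor. The summed level of 4 B cell markers (Cd79a, Cd79b, Ms4a1 and Cd22) was 3208 to 3747 RPKM in WT resting cells, 1049.8 to 1380.2 RPKM after anti-IgM and 1937 to 2564 RPKM after LPS. Summed markers of T cells reached at most 3.04 RPKM, of NK cells 0.482 RPKM and of red cells 5.48 RPKM in any library, and 9 myeloid markers summed to between 13.6 and 24.4 RPKM. In RNA of a whole sample, fewer cells of a type and less RNA per cell cannot be told apart.

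The stretches before the start sites of 4 genes are shown because their transcripts moved in pairs: Irf4 and Irf8 rose after either stimulus, while Pax5 and Bcl6 fell after anti-IgM and did not fall after LPS. Each is the 250 bases before a RefSeq transcript start on GRCm38.p6, printed 5′ to 3′ on the strand of the gene. Capitals mark matches on either strand to TATAAA (the TATA box), TTCNNNGAA (the palindrome that BCL6 and STAT factors share), the ETS-IRF composite (GGAA and GAAA with any 2 bases between them), CAGGTG (an E-box) or TGANTCA (AP-1). The Irf4 window is chr13:30748983-30749232, plus strand, of which 7 bases fall in an exon that GENCODE gives for the gene. The Irf8 window is chr8:120736108-120736357, plus strand. The Pax5 window is chr4:44710695-44710944, minus strand. The Bcl6 window is chr16:23981284-23981533, minus strand, which lies within the span of the gene, before the more downstream of its RefSeq starts and outside its annotated exons.
Irf4: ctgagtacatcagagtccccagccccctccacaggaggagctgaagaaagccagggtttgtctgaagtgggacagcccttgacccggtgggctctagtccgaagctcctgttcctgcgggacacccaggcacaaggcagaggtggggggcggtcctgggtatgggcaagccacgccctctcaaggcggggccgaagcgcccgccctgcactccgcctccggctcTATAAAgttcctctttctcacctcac
Irf8: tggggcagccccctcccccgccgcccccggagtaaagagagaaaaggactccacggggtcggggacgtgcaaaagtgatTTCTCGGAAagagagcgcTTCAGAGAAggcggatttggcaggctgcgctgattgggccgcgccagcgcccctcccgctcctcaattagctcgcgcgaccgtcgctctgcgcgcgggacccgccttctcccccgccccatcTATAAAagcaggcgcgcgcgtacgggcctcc
Pax5: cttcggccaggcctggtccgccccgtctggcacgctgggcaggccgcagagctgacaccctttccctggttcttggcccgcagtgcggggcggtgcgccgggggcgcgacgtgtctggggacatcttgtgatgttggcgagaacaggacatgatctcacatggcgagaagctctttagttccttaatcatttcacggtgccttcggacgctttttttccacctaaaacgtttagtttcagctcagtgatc
Bcl6: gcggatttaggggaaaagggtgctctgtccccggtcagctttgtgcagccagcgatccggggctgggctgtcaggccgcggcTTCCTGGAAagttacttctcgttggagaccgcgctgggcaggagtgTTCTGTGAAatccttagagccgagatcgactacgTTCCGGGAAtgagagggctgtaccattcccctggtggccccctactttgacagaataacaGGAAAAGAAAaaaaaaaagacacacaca

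Irf4 and Irf8 each carried TATAAA close to the start, at -26 to -21 and at -31 to -26 counted from the start site, and 12.4% of 32851 mouse promoter windows of this length hold that word. Irf8 also held 2 matches to TTCNNNGAA and Bcl6 held 3, at -168, -122 and -88, where 7.02% of all windows hold at least 1. The Bcl6 window further held GGAAAAGAAA at -28 to -19, a form of the composite found in 2.30% of windows. The Pax5 window matched none of the 5 words, which are part of a longer set of words searched. Of the windows not printed, the Prdm1 window (chr10:44458749-44458998, minus strand) held the AP-1 word as TGAATCA at -48 to -42, present in 6.75% of windows, and the E-box CAGGTG, present in 17.2%. The Bach2 window (chr4:32417185-32417434, plus strand) held both words of the Bcl6 window, the composite on the other strand at -17 to -8 and the palindrome as TTCGTTGAA at -140 to -132. The window of the other Bcl6 start held 1 palindrome, and those of Xbp1 and of the second Irf8 start held the E-box. Like the printed Bcl6 window, those of Prdm1, Bach2 and the second Irf8 start lie within the spans of their genes, outside their annotated exons. A match of letters is a description of the window and not a binding site.

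**Figure D1:**
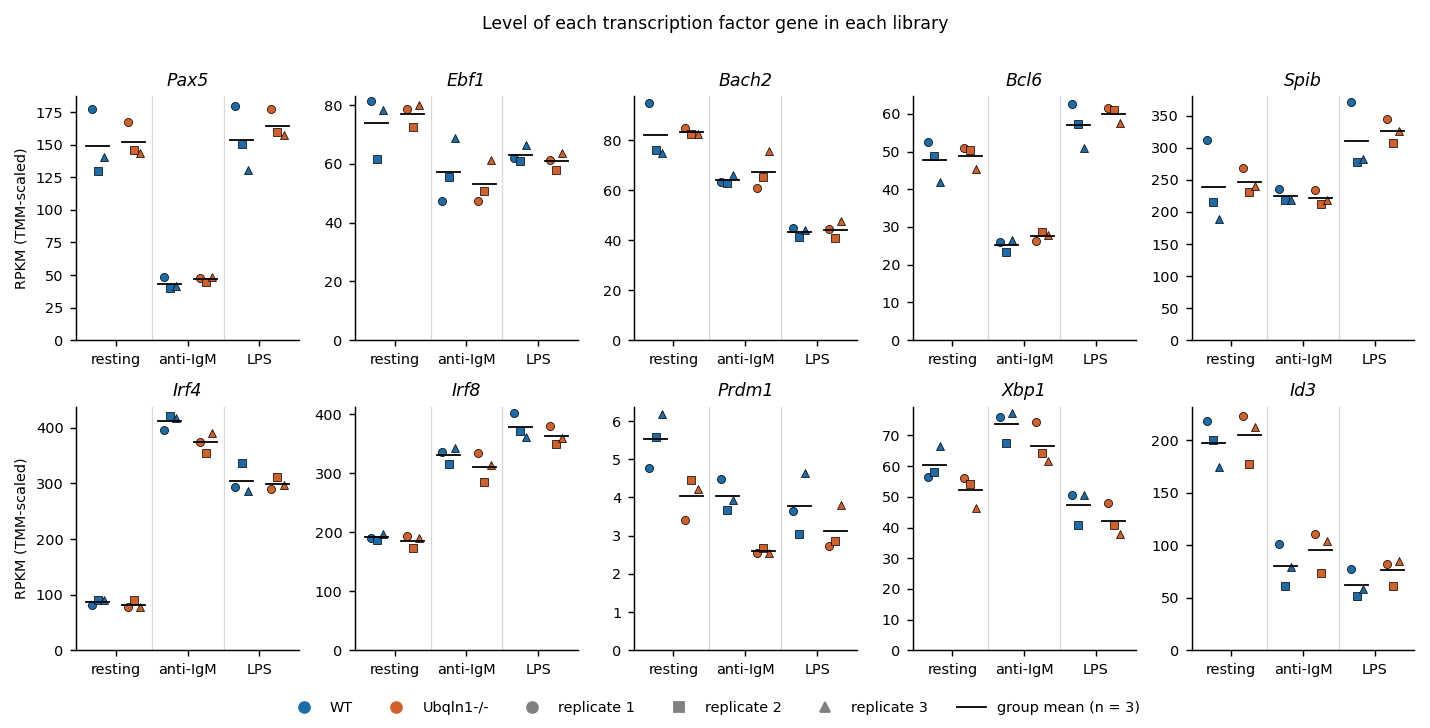
Level of the 10 genes in all 18 libraries, in RPKM on a linear axis from 0, by condition; blue points are WT, orange points Ubqln1-/-, the marker shape gives the replicate number and the line the mean of 3 libraries. Irf4 rose from 77.7 to 90.0 RPKM at rest to 355.6 RPKM or more after anti-IgM, Pax5 and Bcl6 dropped in the anti-IgM libraries alone, and Prdm1 did not exceed 6.20 RPKM in any library.

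At rest the 10 genes covered a wide range of levels per length. In WT resting cells Spib stood highest at 238.9 ± 64.9 RPKM (SD, n = 3), followed by Id3 at 198 ± 22.2, Irf8 at 191 ± 4.92 and Pax5 at 149 ± 24.8 RPKM. Irf4 (87.2 ± 4.74), Bach2 (82.0 ± 11.2), Ebf1 (73.8 ± 10.6) and Xbp1 (60.3 ± 5.38 RPKM) came next, then Bcl6 at 47.7 ± 5.38 and Prdm1 at 5.52 ± 0.708 RPKM. Id3 and Irf8 lay within the range of Spib, whose WT resting libraries ran from 189 to 312 RPKM, Irf4 and Bach2 differed by less than the SD of Bach2, and Bach2 and Ebf1 by less than either SD. Ubqln1-/- resting cells gave the same order but for Bach2 (83.2 ± 1.40 RPKM), which stood just above Irf4 (81.8 ± 6.80 RPKM). After anti-IgM the order was led by Irf4 at 411 ± 13.5 RPKM, above Irf8 at 332 ± 14.5, and after LPS by Irf8 at 379 ± 20.6, with Spib at 310.4 ± 52.6 and Irf4 at 305 ± 26.7 RPKM inside each other's spread. Prdm1 was last in each of the 6 groups. The order between genes depends on the gene width in the files, which for Pax5 was 1208 bases, or 13.6% of the exons that GENCODE joins for it, against 40.1% for Irf8, 92.2% for Prdm1 and 95.5% for Irf4.

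After anti-IgM, 9 of the 10 genes changed in WT cells, 3 of them higher and 6 lower, against 64.6% of all genes tested (32.4% higher and 32.2% lower). Irf4, Irf8 and Xbp1 rose, and Pax5, Id3, Bcl6, Prdm1, Ebf1 and Bach2 fell. Irf4 and Pax5 moved the most, and Spib did not pass the test. A gene is called changed at an adjusted p under 0.05 in edgeR's quasi-likelihood test, with Benjamini-Hochberg adjustment over all genes, and every adjusted p from here on is of that test unless another is named. The median of the 10 log2 fold changes was -0.36, where that of all genes was -0.01, and the median size was 0.62 against 0.47. In 8 of the 10 the WT anti-IgM and resting libraries did not overlap, as in 66.2% of all genes. Ubqln1-/- cells gave 9 changed genes as well, 3 higher and 6 lower, against 65.3% of all genes tested (32.9% higher and 32.4% lower), and 9 without overlap, against 71.3%. With a log2 fold change over 1 as a further condition, 3 members passed in each genotype (Pax5, Irf4 and Id3), against 20.6% of all genes in WT and 20.3% in Ubqln1-/- cells. The members were chosen with earlier results of these data known, so their share called is not read as a result. The background is itself most of the genes, and the following values describe the direction and size of each gene.

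After LPS, 8 of the 10 changed in WT cells, 4 higher and 4 lower, against 61.2% of all genes tested (31.2% higher and 30.1% lower), and 6 did not overlap, against 62.3%. Irf4, Irf8, Spib and Bcl6 rose, and Id3, Bach2, Prdm1 and Xbp1 fell. Pax5 and Ebf1 did not pass the test in WT cells. Ubqln1-/- cells gave 8 changed genes, 4 higher and 4 lower, against 60.7% (30.6% higher and 30.2% lower), with Ebf1 called in place of Prdm1, and 7 did not overlap, against 67.6%. A log2 fold change over 1 was reached by 2 members in each genotype (Irf4 and Id3), against 15.8% of all genes in WT and 15.9% in Ubqln1-/- cells. The anti-IgM and LPS comparisons of a genotype share its resting libraries.

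**Figure D2:**
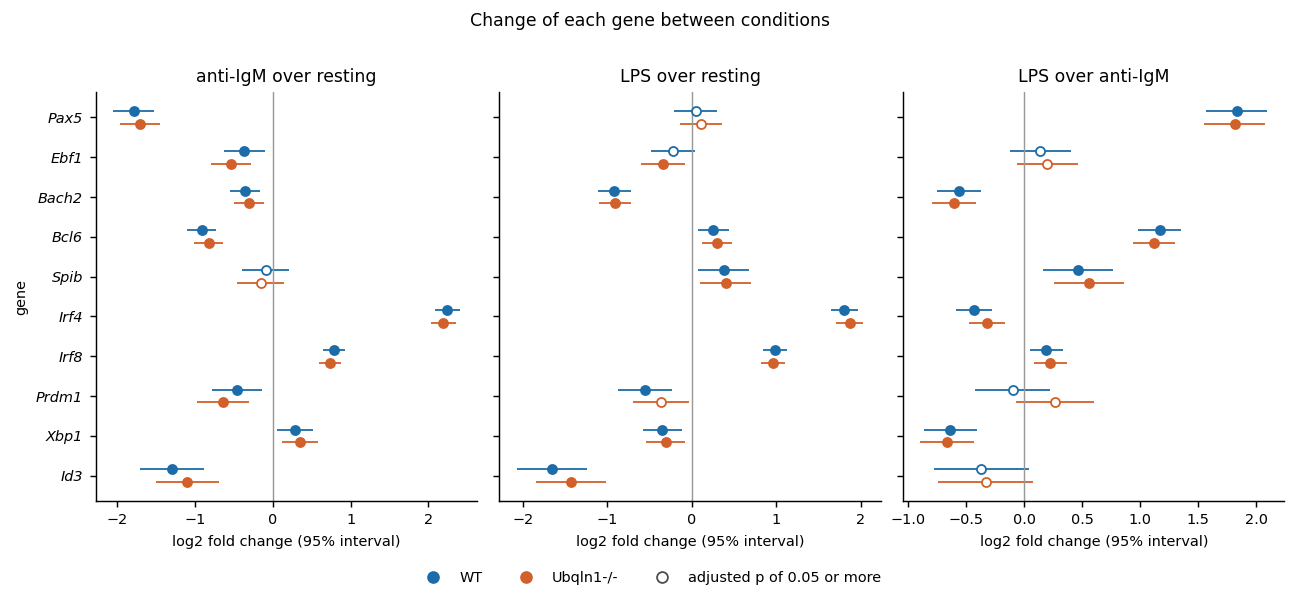
Log2 fold change of each gene with its 95% confidence interval for anti-IgM over resting, LPS over resting and LPS over anti-IgM, in WT (blue) and Ubqln1-/- cells (orange, 3 libraries a group); open points had an adjusted p of 0.05 or more. Pax5 lay at -1.79 after anti-IgM and at 0.04 after LPS in WT cells, while Irf4 lay at 2.24 and 1.81.

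Pax5 (chr4:44524748-44710694, minus strand), the factor that commits a progenitor to the B lineage, was present at 177, 129.6 and 141 RPKM in WT resting libraries 1, 2 and 3. After anti-IgM the same genotype gave 48.2, 39.7 and 41.8 RPKM, and after LPS 180.0, 151 and 130.5 RPKM. Every anti-IgM library was below every resting library, and the LPS libraries lay across the range of the resting ones. Anti-IgM thus left Pax5 at 29.0% of its resting level, a log2 fold change of -1.79 ± 0.12 (SE, adjusted p = 4.00e-09), and LPS gave 0.04 ± 0.12 (adjusted p = 0.762). In Ubqln1-/- cells Pax5 was at 143 to 168 RPKM at rest, 44.9 to 48.1 RPKM after anti-IgM and 157 to 177 RPKM after LPS. The log2 fold changes there were -1.70 ± 0.12 (adjusted p = 6.66e-09) and 0.11 ± 0.12 (adjusted p = 0.43).

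Ebf1 (chr11:44618100-45008096, plus strand), which acts with Pax5 and before it in development, moved much less. WT resting libraries gave 81.3, 61.7 and 78.5 RPKM, WT anti-IgM libraries 47.5, 55.7 and 68.8 RPKM and WT LPS libraries 62.2, 61.0 and 66.4 RPKM. The WT groups overlapped in each pair, while in Ubqln1-/- cells all anti-IgM libraries (47.5 to 61.5 RPKM) and all LPS libraries (57.8 to 63.7 RPKM) were below the resting ones (72.5 to 80.1 RPKM). Anti-IgM gave a log2 fold change of -0.36 ± 0.12 in WT (adjusted p = 0.0163) and -0.54 ± 0.12 in Ubqln1-/- cells (adjusted p = 0.00112). LPS gave -0.22 ± 0.12 in WT (adjusted p = 0.127) and -0.34 ± 0.12 in Ubqln1-/- cells (adjusted p = 0.0259). The WT anti-IgM call was lost without WT anti-IgM replicate 1 or 2 or WT resting replicate 1 or 3 (adjusted p 0.0527 to 0.0988) and when only the 2 groups compared were fitted (adjusted p = 0.0573), and the Ubqln1-/- LPS call was lost without Ubqln1-/- LPS replicate 1 or 2 or resting replicate 1 or 3 (adjusted p 0.0546 to 0.0873). The WT LPS change became called without WT resting replicate 2 (adjusted p = 0.0309) and with the replicate number as a block (adjusted p = 0.0392).

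Id3 (chr4:136143822-136145392, plus strand), the inhibitor of E proteins, fell after both stimuli. At rest, WT libraries gave 218, 200.0 and 174 RPKM. WT anti-IgM libraries gave 101, 61.4 and 79.5 RPKM, and WT LPS libraries 77.9, 51.7 and 58.1 RPKM. Every stimulated library was below every resting one, and the anti-IgM and LPS libraries overlapped. The log2 fold change was -1.29 ± 0.19 after anti-IgM (adjusted p = 1.90e-05) and -1.66 ± 0.20 after LPS (adjusted p = 1.85e-06). Ubqln1-/- cells gave -1.10 ± 0.19 (adjusted p = 9.40e-05) and -1.43 ± 0.20 (adjusted p = 9.42e-06), from 178 to 224 RPKM at rest to 73.4 to 110.4 RPKM and 61.6 to 85.4 RPKM.

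Spib (chr7:44525995-44532087, minus strand), an ETS factor of mature B cells, was the most variable member at rest in WT cells, at 312, 216 and 189 RPKM. WT anti-IgM libraries were at 236, 218 and 219 RPKM and WT LPS libraries at 371, 278 and 282 RPKM. The WT LPS and resting ranges overlapped, through WT resting replicate 1. Anti-IgM gave a log2 fold change of -0.09 ± 0.14 in WT (adjusted p = 0.60) and -0.15 ± 0.14 in Ubqln1-/- cells (adjusted p = 0.354), neither of which passed the test. LPS raised Spib by 0.38 ± 0.14 in WT (adjusted p = 0.0298) and by 0.40 ± 0.14 in Ubqln1-/- cells (adjusted p = 0.0219), where 308 to 345 RPKM stood above 231 to 268 RPKM. The WT call was lost without WT LPS replicate 1 or WT resting replicate 2 or 3 (adjusted p 0.102 to 0.181) and with only the groups compared (adjusted p = 0.128), and the Ubqln1-/- call without Ubqln1-/- LPS replicate 1 or resting replicate 2 or 3 (adjusted p 0.0588 to 0.0684).

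Of the repressors, Bcl6 (chr16:23965050-23988866, minus strand) took opposite directions. At rest the WT libraries held 52.5, 48.7 and 41.9 RPKM, WT anti-IgM libraries 26.0, 23.4 and 26.6 RPKM and WT LPS libraries 62.7, 57.2 and 50.9 RPKM. All anti-IgM libraries were below all resting libraries, and the LPS libraries overlapped the upper end of the resting ones. The log2 fold change was -0.91 ± 0.09 after anti-IgM (adjusted p = 1.09e-07) and 0.26 ± 0.09 after LPS (adjusted p = 0.0159). The Ubqln1-/- values were -0.82 ± 0.09 (adjusted p = 3.54e-07) and 0.30 ± 0.09 (adjusted p = 0.00637), from 45.3 to 50.8 RPKM at rest to 26.3 to 28.7 RPKM and 57.6 to 61.5 RPKM. The small WT rise with LPS was no longer called without WT LPS replicate 1 or WT resting replicate 3 (adjusted p 0.0831 to 0.0926) or with only the groups compared (adjusted p = 0.078).

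Bach2 (chr4:32238413-32586109, plus strand), the repressor that competes for AP-1-like sites, fell with both stimuli. Resting WT libraries gave 94.8, 76.0 and 75.1 RPKM, WT anti-IgM libraries 63.3, 62.8 and 65.9 RPKM and WT LPS libraries 44.7, 41.2 and 44.3 RPKM. The WT groups formed 3 ranges that did not overlap, with LPS lowest. The log2 fold change was -0.36 ± 0.09 after anti-IgM (adjusted p = 0.0023) and -0.92 ± 0.09 after LPS (adjusted p = 2.87e-07), and in Ubqln1-/- cells -0.31 ± 0.09 (adjusted p = 0.00663) and -0.91 ± 0.09 (adjusted p = 3.12e-07). Ubqln1-/- libraries lay at 82.4 to 84.8 RPKM at rest, 60.9 to 75.7 RPKM after anti-IgM and 40.8 to 47.5 RPKM after LPS.

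Irf4 (chr13:30749233-30766981, plus strand) rose most of the 10 genes after either stimulus. WT resting libraries gave 81.7, 90.0 and 89.8 RPKM, WT anti-IgM libraries 396, 421 and 417 RPKM and WT LPS libraries 293, 336 and 287 RPKM. The 3 ranges were separate, with anti-IgM highest. Anti-IgM raised Irf4 4.72-fold (log2 fold change 2.24 ± 0.08, adjusted p = 9.05e-12) and LPS 3.50-fold (1.81 ± 0.08, adjusted p = 4.92e-11). In Ubqln1-/- cells, 77.7 to 89.7 RPKM at rest became 355.6 to 391 RPKM after anti-IgM and 290.1 to 311 RPKM after LPS, with log2 fold changes of 2.19 ± 0.08 (adjusted p = 1.24e-11) and 1.87 ± 0.08 (adjusted p = 5.16e-11). Irf4 alone of the 10 passed the thresholds that the study set for differential expression, an adjusted p under 0.001 with a log2 fold change over 2, and it did so after anti-IgM, where 3.76% of all genes passed in WT and 3.64% in Ubqln1-/- cells. After LPS none of the 10 passed those thresholds, against 1.8% and 1.74% of all genes.

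Irf8 (chr8:120736358-120756694, plus strand) rose less, and more after LPS than after anti-IgM. WT resting libraries gave 190.5, 187 and 197 RPKM, WT anti-IgM libraries 336, 315 and 344 RPKM and WT LPS libraries 402, 372 and 362 RPKM. No library of these 3 groups fell within the range of another group. The log2 fold change was 0.79 ± 0.07 after anti-IgM (adjusted p = 3.12e-08) and 0.98 ± 0.07 after LPS (adjusted p = 7.43e-09). The Ubqln1-/- values were 0.74 ± 0.07 (adjusted p = 6.68e-08) and 0.96 ± 0.07 (adjusted p = 8.30e-09), from 174 to 193 RPKM at rest to 285 to 334 RPKM and 349.7 to 381 RPKM. The sum of 7 dendritic cell markers, cells in which Irf8 and Irf4 are also expressed, moved with these rises: it was 27.7 to 34.1 RPKM in WT resting libraries, 41.1 to 45.8 RPKM after anti-IgM and 59.6 to 68.5 RPKM after LPS, and 30.1 to 33.4, 44.2 to 49.7 and 53.4 to 58.4 RPKM in the Ubqln1-/- libraries. Of the 6 markers tested, 2 rose and 0 fell after anti-IgM in WT cells, where 32.4% of all genes rose. After LPS 3 rose and 0 fell, where 31.2% of all genes rose. In Ubqln1-/- cells 2 rose and 0 fell after anti-IgM, and 3 rose and 1 fell after LPS, against 32.9% and 30.6% of all genes higher. Itgax, at a low level, had lower means after both stimuli, at 0.985, 0.665 and 0.610 RPKM in the WT groups. Most of the sum was Bst2, at a mean of 26.6, 35.5 and 45.6 RPKM in the WT groups, while Siglech did not exceed 0.133 RPKM and Clec9a 0.374 RPKM in any library. The part of these cells in the Irf8 and Irf4 values was not tested.

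Prdm1 (chr10:44437174-44528558, minus strand), the driver of plasma cell formation, was the least abundant member, with 237 to 736 counts a library. WT resting libraries gave 4.78, 5.57 and 6.20 RPKM, WT anti-IgM libraries 4.49, 3.67 and 3.94 RPKM and WT LPS libraries 3.64, 3.05 and 4.64 RPKM. Each stimulated library was below each resting one, and the stimulated groups overlapped. Prdm1 fell by 0.46 ± 0.15 on the log2 scale after anti-IgM (adjusted p = 0.0151) and by 0.55 ± 0.15 after LPS (adjusted p = 0.0046) in WT cells. In Ubqln1-/- cells, at 3.41 to 4.45 RPKM at rest, 2.54 to 2.68 RPKM after anti-IgM and 2.74 to 3.80 RPKM after LPS, it fell by 0.64 ± 0.16 after anti-IgM (adjusted p = 0.00184), and LPS gave -0.37 ± 0.16 (adjusted p = 0.0522). The WT anti-IgM call was lost without WT anti-IgM replicate 2 or 3 or WT resting replicate 3 (adjusted p 0.0512 to 0.0854). The Ubqln1-/- LPS change became called with the replicate number as a block (adjusted p = 0.0197), in DESeq2 (adjusted p = 0.0417), with a filter of 10 counts in every library (adjusted p = 0.0413), and without Ubqln1-/- LPS replicate 3 or resting replicate 1 (adjusted p 0.0117 to 0.0316). Summed plasma cell markers also fell, from 393 to 431 RPKM in WT resting libraries to 171 to 277 RPKM after anti-IgM and 187 to 287 RPKM after LPS. Most of that fall was Mzb1, at a mean of 266, 93.5 and 140 RPKM in the WT groups. Jchain, at 117, 109 and 86.1 RPKM, was not called (adjusted p = 0.813 and 0.31). Of the 5 markers tested, 3 fell and 0 rose after each stimulus in WT cells, where 32.2% and 30.1% of all genes fell. The part of plasma cells in the Prdm1 values was not tested.

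Xbp1 (chr11:5520641-5525993, plus strand), the factor of the unfolded protein response and of secretion, rose after anti-IgM and fell after LPS. WT resting libraries gave 56.6, 58.0 and 66.5 RPKM, WT anti-IgM libraries 76.1, 67.5 and 77.4 RPKM and WT LPS libraries 50.7, 40.9 and 50.8 RPKM. The WT groups did not overlap, though WT resting replicate 3 and WT anti-IgM replicate 2 came close. The log2 fold change was 0.29 ± 0.11 after anti-IgM (adjusted p = 0.0284) and -0.35 ± 0.11 after LPS (adjusted p = 0.011), and in Ubqln1-/- cells 0.35 ± 0.11 (adjusted p = 0.00918) and -0.31 ± 0.11 (adjusted p = 0.023). Ubqln1-/- libraries lay at 46.5 to 56.1 RPKM at rest, 61.5 to 74.3 RPKM after anti-IgM and 37.9 to 48.1 RPKM after LPS, where 1 LPS library overlapped the resting range. These calls rest on few libraries: the WT anti-IgM call was lost without WT anti-IgM replicate 1 or 3 or WT resting replicate 1 or 2 (adjusted p 0.0686 to 0.113), the WT LPS call without WT LPS replicate 2 or resting replicate 3 (adjusted p 0.0695 to 0.073), the Ubqln1-/- anti-IgM call without Ubqln1-/- resting replicate 3 (adjusted p = 0.0545) and the Ubqln1-/- LPS call without Ubqln1-/- LPS replicate 2 or 3 or resting replicate 1 or 2 (adjusted p 0.0723 to 0.114).

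Set directly against anti-IgM, LPS left 7 of the 10 genes at another level in WT cells, 4 higher and 3 lower, against 32.4% of all genes tested (17.4% higher and 15% lower), and 7 did not overlap, against 40.6%. Ubqln1-/- cells also gave 7, 4 higher and 3 lower, against 31.3% (16.8% higher and 14.5% lower), and 8 did not overlap, against 46.5%. Pax5 was 3.56-fold higher with LPS than with anti-IgM in WT cells (log2 1.83 ± 0.12, adjusted p = 6.55e-09) and 3.51-fold higher in Ubqln1-/- cells (1.81 ± 0.12, adjusted p = 7.98e-09). Bcl6 was 2.25-fold and 2.17-fold higher, at 1.17 ± 0.09 (adjusted p = 1.82e-08) and 1.12 ± 0.09 (adjusted p = 3.52e-08). These were the members with a log2 difference over 1, as 9.42% of all genes had in WT and 8.73% in Ubqln1-/- cells. The thresholds of the study were met by none of the 10 here, against 2.51% and 2.24% of all genes. Spib was higher by 0.47 ± 0.14 in WT (adjusted p = 0.0177) and 0.56 ± 0.14 in Ubqln1-/- cells (adjusted p = 0.00624), and Irf8 by 0.19 ± 0.07 (adjusted p = 0.0355) and 0.23 ± 0.07 (adjusted p = 0.0158).

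On the lower side, Xbp1 differed by -0.63 ± 0.11 in WT (adjusted p = 0.000208) and -0.66 ± 0.11 in Ubqln1-/- cells (adjusted p = 0.000167), and Bach2 by -0.56 ± 0.09 (adjusted p = 0.000113) and -0.60 ± 0.09 (adjusted p = 5.92e-05). Irf4 differed by -0.43 ± 0.07 in WT (adjusted p = 0.00019) and -0.32 ± 0.07 in Ubqln1-/- cells (adjusted p = 0.00276). Id3 gave -0.37 ± 0.19 in WT and -0.33 ± 0.19 in Ubqln1-/- cells, which did not pass the test (adjusted p = 0.167 and 0.222) but did with the replicate number as a block (adjusted p = 0.0115 and 0.0238), and LPS was below anti-IgM in 3 of 3 same-numbered pairs of each genotype. Ebf1 (0.14 ± 0.12 and 0.20 ± 0.12) and Prdm1 (-0.10 ± 0.15 and 0.27 ± 0.16) were not called in either genotype. The Spib call in WT was lost without WT LPS replicate 1 or WT anti-IgM replicate 2 or 3 (adjusted p 0.0519 to 0.114). The Irf8 call in WT was lost without WT LPS or WT anti-IgM replicate 1 or 2 (adjusted p 0.051 to 0.157) and with only the groups compared (adjusted p = 0.107), and that in Ubqln1-/- cells without Ubqln1-/- LPS replicate 1 or anti-IgM replicate 2 (adjusted p 0.0791 to 0.0991).

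The balance of factors that oppose each other was read within each library, where a ratio of RPKM does not depend on the scaling of the library but does depend on the gene widths in the files. The width of Irf8, 2829 bases, was 40.1% of the exons that GENCODE joins for it, against 95.5% for Irf4, so the 0 of their ratio is set by these gene models and only its change between conditions is read. Irf4 over Irf8 was -1.14 ± 0.08 (mean log2 ± SD, n = 3) in WT resting cells, 0.31 ± 0.09 after anti-IgM and -0.31 ± 0.16 after LPS. The ratio was higher in every WT anti-IgM library than in every WT LPS library, and higher in those than in every resting one. The Ubqln1-/- means were -1.19 ± 0.20, 0.27 ± 0.09 and -0.28 ± 0.11.

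Prdm1 over Pax5 was -4.75 ± 0.40 in WT resting cells, -3.42 ± 0.01 after anti-IgM and -5.36 ± 0.47 after LPS. The 3 anti-IgM libraries, at -3.44 to -3.41, were above every other WT library, although Prdm1 itself was lower there than at rest, because Pax5 was lower by more. The Ubqln1-/- means were -5.24 ± 0.33 at rest, -4.18 ± 0.10 after anti-IgM and -5.73 ± 0.33 after LPS. For Prdm1 over Bcl6 the WT means were -3.11 ± 0.35 at rest, -2.66 ± 0.11 after anti-IgM and -3.93 ± 0.41 after LPS, beside -3.61 ± 0.26, -3.41 ± 0.05 and -4.28 ± 0.31 for the Ubqln1-/- libraries. Prdm1 over Bach2 had WT means of -3.89 ± 0.37 at rest, -3.99 ± 0.15 after anti-IgM and -3.54 ± 0.26 after LPS, beside -4.38 ± 0.23, -4.69 ± 0.18 and -3.83 ± 0.19 for the Ubqln1-/- libraries. Only this last ratio was higher on average after LPS than after anti-IgM.

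**Figure D3:**
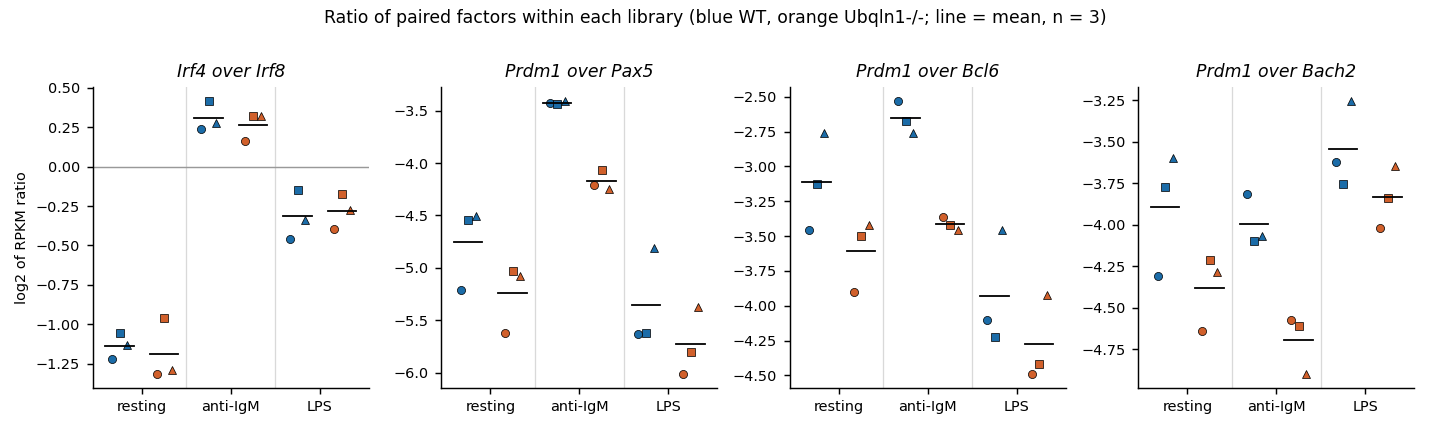
Log2 ratio of the RPKM of 2 factors within each library, by condition, with WT in blue, Ubqln1-/- in orange, marker shapes for replicate numbers and a line for the mean of 3 libraries. Irf4 over Irf8 was highest in the anti-IgM libraries and lowest at rest, on a scale whose 0 depends on the gene widths, and each ratio with Prdm1 had a lower mean in Ubqln1-/- cells in every condition.

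Between the genotypes, none of the 10 genes passed the test in the fit without the replicate number. With that number as a block, edgeR called Prdm1 after anti-IgM (adjusted p = 0.0323). The fit without it called none at rest, after anti-IgM or after LPS, where 0.0565%, 0.0989% and 0.0424% of all genes passed. At an unadjusted p under 0.05, that fit held 1 gene at rest and 1 after anti-IgM, Prdm1 in each case, and 0 after LPS. Of all genes tested, 4.22%, 5.14% and 3.93% did so. After anti-IgM the block took all genes called from 12 higher and 2 lower to 67 and 27. DESeq2 called 0, 1 and 0, the 1 again being Prdm1, and limma-voom called 0 in each. The libraries of the genotypes did not overlap for 2 members at rest (Prdm1 and Xbp1), for 2 after anti-IgM (Prdm1 and Irf4) and for 0 after LPS, against 7.91%, 11.4% and 7.01% of all genes. Neither response differed between the genotypes for any member in the test of the difference of responses. There edgeR called 0 of all genes (0%). At an unadjusted p under 0.05 it held 0 of the members, against 0.989% of all genes for anti-IgM and 1.55% for LPS. DESeq2 and limma-voom called 0 of the members.

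Prdm1 was the member with the largest difference at rest and after anti-IgM. At rest its mean was 4.03 ± 0.552 RPKM in Ubqln1-/- and 5.52 ± 0.708 RPKM in WT cells, after anti-IgM 2.59 ± 0.0767 and 4.03 ± 0.419 RPKM, and after LPS 3.13 ± 0.583 and 3.78 ± 0.803 RPKM (SD, n = 3). Prdm1 was lower in Ubqln1-/- cells in 3 of 3 same-numbered pairs after anti-IgM and after LPS, and at rest the genotypes did not overlap. The log2 fold changes of Ubqln1-/- over WT were -0.46 (95% interval -0.78 to -0.13, adjusted p = 0.862), -0.64 (-0.97 to -0.31, adjusted p = 0.238) and -0.27 (-0.60 to 0.06, adjusted p = 1.00). The anti-IgM difference was called with the replicate number as a block (-0.64, adjusted p = 0.0323), a fit that called 67 genes higher and 27 lower, and in DESeq2 (-0.64, adjusted p = 0.0309), which called 34 higher and 13 lower, and in none of the other fits, in which its adjusted p lay between 0.228 and 0.651.

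Jchain, the joining chain of secreted antibody and a plasma cell marker, also had lower means in Ubqln1-/- cells and is given here after its values were seen. It was at 75.0, 90.3 and 185 RPKM in WT resting libraries and at 55.2, 68.2 and 63.2 RPKM in Ubqln1-/- ones, at 79.3, 76.4 and 171 against 50.0, 55.0 and 65.8 RPKM after anti-IgM, and at 61.0, 56.7 and 141 against 35.1, 47.3 and 48.0 RPKM after LPS. The genotypes did not overlap in any condition, and replicate 3 was the highest WT library in each. The log2 fold changes were -0.91 ± 0.37, -0.93 ± 0.37 and -0.98 ± 0.37 (SE), none of which passed the test (adjusted p = 1.00, 0.843 and 0.981). The summed plasma cell markers averaged 409 ± 19.8 RPKM in WT and 352 ± 34.9 RPKM in Ubqln1-/- cells at rest, 217 ± 54.4 and 169 ± 7.70 RPKM after anti-IgM and 233 ± 50.5 and 198 ± 9.51 RPKM after LPS. Jchain is itself in this sum and makes most of the gap. Mzb1, also in it, had higher means in Ubqln1-/- cells, at 268 against 266, 98.3 against 93.5 and 148 against 140 RPKM. The other markers of the sum had lower means there. Of the 5 markers tested, 0 were called between genotypes in any condition. The part of plasma cells in the Prdm1 difference was not tested.

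**Figure D4:**
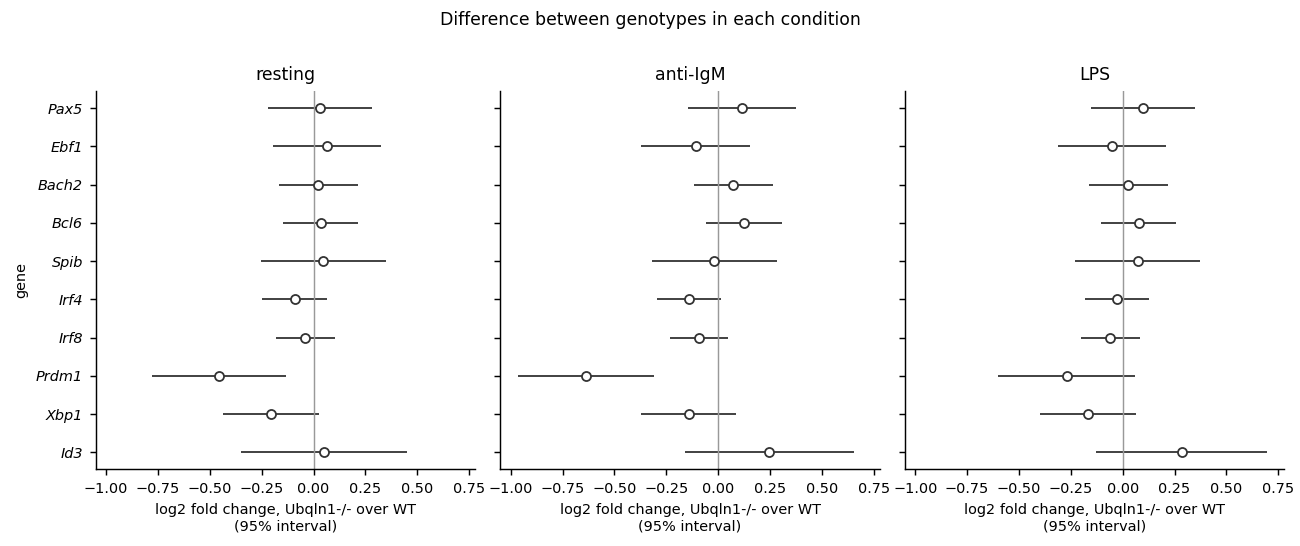
Log2 fold change of Ubqln1-/- over WT with its 95% confidence interval for the 10 genes at rest, after anti-IgM and after LPS (3 libraries a group). None had an adjusted p under 0.05 in the fit shown, which leaves out the replicate number. With that number as a block, Prdm1 after anti-IgM did (adjusted p = 0.0323). The interval of Prdm1 lay below 0 at rest and after anti-IgM, and all other intervals, from the fit without the replicate number, held 0.

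For the other 9 genes the intervals held 0 in every condition in the fit without the replicate number. The widest were those of Id3, from -0.35 to 0.45 at rest, -0.16 to 0.66 after anti-IgM and -0.13 to 0.70 after LPS, around 0.05, 0.25 and 0.28. Id3 was higher in Ubqln1-/- cells in 3 of 3 same-numbered pairs after anti-IgM and after LPS, and with the replicate number as a block its intervals were 0.03 to 0.48 and 0.06 to 0.52, neither of which held 0, with adjusted p of 0.377 and 0.382. Xbp1 gave log2 differences of -0.21 (-0.44 to 0.02), -0.14 (-0.37 to 0.09) and -0.17 (-0.40 to 0.06). It was lower in Ubqln1-/- cells in 3 of 3 same-numbered pairs after anti-IgM and after LPS, and at rest the genotypes did not overlap. Irf4 differed by -0.09 (-0.25 to 0.06), -0.14 (-0.29 to 0.02) and -0.03 (-0.18 to 0.13), and its 3 anti-IgM libraries of Ubqln1-/- cells, at 374, 355.6 and 391 RPKM, were below the 3 of WT cells, at 396, 421 and 417 RPKM. With the block the Irf4 interval after anti-IgM was -0.26 to -0.01, with an adjusted p of 0.377. Pax5, Ebf1, Bach2, Bcl6, Spib and Irf8 had estimates between -0.11 and 0.13 in all 3 conditions. In the difference of responses the Prdm1 values were -0.18 (-0.64 to 0.28) for anti-IgM and 0.18 (-0.28 to 0.65) for LPS, and those of Id3 0.20 (-0.38 to 0.77) and 0.23 (-0.34 to 0.81).

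The genes around these factors were followed in 5 lists of known partners and targets, described by counts and medians with no test of a list. The share of all genes called in each comparison is the one given with the members. Of 15 B cell genes that PAX5 and EBF1 switch on, 11 fell and 4 rose after anti-IgM in WT cells, with a median log2 fold change of -1.26, where that of all genes was -0.01. After LPS 10 fell, 4 rose and 1 was not called, with a median of -0.62. Vpreb3 (log2 fold change -2.75 ± 0.25) and Cd55, a complement regulator (-2.27 ± 0.12), fell most after anti-IgM, while Swap70 (0.87 ± 0.07) and the coreceptor Cd72 (0.86 ± 0.13) rose. With LPS, Swap70 (1.85 ± 0.08) and Fcer2a, the low-affinity IgE receptor CD23 (1.63 ± 0.16), rose, and Fcrla (-1.47 ± 0.17) and Vpreb3 (-1.22 ± 0.23) fell. The median was -1.30 after anti-IgM and -0.55 after LPS in Ubqln1-/- cells, where 11 and 10 fell and 3 and 4 rose.

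Of 22 partner factors of the B lineage, 13 fell and 3 rose after anti-IgM (median -0.53), and 9 fell and 5 rose after LPS (median -0.27), with 13 and 3, and 8 and 5, in Ubqln1-/- cells. Ets1 (-1.97 ± 0.10) and Tcf3, an E protein that Id3 inhibits (-1.58 ± 0.07), fell most with anti-IgM, and Ets1 (-1.13 ± 0.10) and Runx1 (-0.97 ± 0.12) with LPS. Id1, another inhibitor of E proteins, took the direction opposite to Id3. From a low level of 0.457 ± 0.162 RPKM in WT resting cells, Id1 rose by 1.45 ± 0.29 after anti-IgM and 2.60 ± 0.27 after LPS. Id2, also an inhibitor of E proteins, rose by 1.84 ± 0.27 after LPS, and its change after anti-IgM is not given here. Bach1, the relative of Bach2, rose by 0.70 ± 0.08 after anti-IgM.

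Of the 7 other IRF genes, none rose and 6 fell after anti-IgM in WT cells (median -0.65), unlike Irf4 and Irf8, and 3 rose and 1 fell after LPS (median 0.14). Irf2 fell with anti-IgM (-1.40 ± 0.10) and with LPS (-1.16 ± 0.10). Irf7, an interferon-induced IRF, fell with anti-IgM (-1.47 ± 0.28) and rose by 2.00 ± 0.25 with LPS, and Irf9, a subunit of the interferon-stimulated ISGF3 complex, rose by 0.96 ± 0.08 with LPS. In Ubqln1-/- cells 5 fell after anti-IgM, and the LPS rises of Irf7 and Irf9 were 0.63 ± 0.25 and 0.57 ± 0.08. Irf9 was the 1 listed gene called between genotypes, at 39.8 ± 3.86 RPKM after LPS in Ubqln1-/- and 54.9 ± 5.76 RPKM in WT cells (log2 -0.46 ± 0.08, adjusted p = 0.0439). Irf7, singled out here after its values were seen, was at 15.8 ± 4.28 and 30.3 ± 11.7 RPKM in the same libraries (-0.94 ± 0.24, adjusted p = 0.287). The Irf9 call lay close to the threshold and was not followed through the other fits. Of these, the fit of the compared groups alone called only 1 gene higher and 1 lower after LPS. The difference of their LPS responses was not called (adjusted p = 1.00 for each).

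Among 17 tested genes of the plasma cell programme and the XBP1 targets, 9 rose and 3 fell after anti-IgM (median 0.20). After LPS 9 rose and 4 fell (median 0.23), while the count of Xbp1 mRNA fell. Counts over the exons of a gene do not measure its protein or the activity of that protein. The largest rises were those of Hspa5, the chaperone BiP of the endoplasmic reticulum (1.41 ± 0.08 after anti-IgM and 1.08 ± 0.08 after LPS), its cochaperone Dnajb9 (1.26 ± 0.17 after anti-IgM) and Zbtb32, a transcriptional repressor (1.17 ± 0.27 after LPS). Mzb1 (-1.51 ± 0.14) and Fkbp11 (-1.36 ± 0.25), both of the endoplasmic reticulum, fell most after anti-IgM, and Sdc1, which encodes the plasma cell surface protein CD138 (-2.52 ± 0.20), and Fkbp11 (-1.12 ± 0.24) after LPS. In Ubqln1-/- cells 9 rose and 3 fell, and 8 rose and 4 fell. Of 11 corepressors and partners of BCL6 and BACH2, 7 rose and 1 fell after anti-IgM (median 0.35) and 7 rose and none fell after LPS (median 0.67), with 6 and 2, and 7 and none, in Ubqln1-/- cells. Maff and Mafg, small MAF proteins that pair with BACH factors, rose by 2.84 ± 0.18 and 1.40 ± 0.10 with anti-IgM, and Batf and Nfil3 by 3.02 ± 0.27 and 1.62 ± 0.25 with LPS, while Zbtb7a (-0.37 ± 0.06) fell with anti-IgM. Every stimulus change named from these lists had an adjusted p under 0.05 in WT cells.

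**Figure D5:**
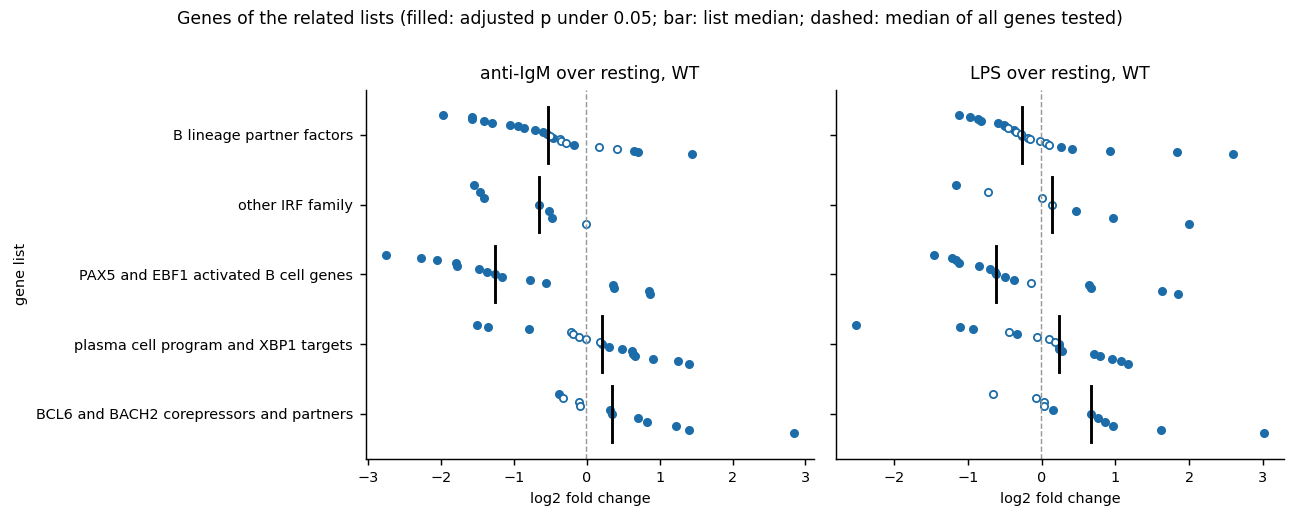
Log2 fold change of each gene of the 5 lists in WT cells for anti-IgM over resting and LPS over resting; filled points had an adjusted p under 0.05, the bar is the median of the list and the dashed line the median of all 14161 genes tested. The list of genes activated by PAX5 and EBF1 had its median at -1.26 after anti-IgM and at -0.62 after LPS.

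Across the 18 libraries, which share their 6 conditions, Pax5 and Bcl6 had the highest correlation of any pair of members (Pearson r = 0.97 of the log2 library-scaled counts), then Irf4 and Irf8 (0.92), and Irf8 and Id3 the lowest (-0.90). By the same measure, a named gene closest to Irf4 was Psme3, a proteasome activator subunit (0.997). Those closest to Irf8 included Chd4, a chromatin remodeller (0.987), and to Bach2 the kinase Dgkz (0.975). Xbp1 was most like Itm2c (0.949), Ebf1 like the kinase Camk1d (0.947), Spib like the receptor Tnfrsf19 (0.914) and Prdm1 like Vps37b, an ESCRT-I subunit (0.879). These correlations describe how the levels ran together over the conditions.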

How the data were processed

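RNASeq was measured in 18 libraries of splenic B cells, 3 per genotype and condition, described by the study as 3 independent experiments. TruSeq v2 libraries, which do not keep strand, were read as single ends of 50 bases. Per the study's methods, GSNAP placed the reads on GRCm38, and the authors deposited, for each library, the count over the exons of every Entrez gene, the gene width and an RPKM. The counting program and annotation release are not given in the sources used here. The deposited RPKM was used only to check each library total, and the gene counts summed to 83.8% to 88.4% of the total it implies. Groups and replicate numbers came from the labels, and samples without a number were replicate 1 by elimination. RefSeq (GRCm38.p6) named 25035 of the 28096 genes, and the symbols, positions and promoter windows come from it. No protein sequences were used here.

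Counts were scaled by TMM and tested with edgeR 4.0.16 (glmQLFit and glmQLFTest, R 4.3.3; filterByExpr; 1 term for each of 6 groups) over 14161 genes, two-sided, with Benjamini-Hochberg adjustment. SE was the log2 fold change over the root of F. In simulated libraries with changes set in the WT anti-IgM group alone, this fit was run over 13982 genes. Against WT resting it found 96% of 100 genes changed by a log2 of 1 and 100% of 100 changed by 2. There were 10 false calls. No other gene differed between groups, replicate numbers shared no effect and smaller changes were not simulated. Counting precision is set by the 15368941 to 41072854 counts a library. The study itself used limma. Alternatives were limma-voom 3.58.1, DESeq2 1.42.0, RLE scaling, other filters, the replicate block, the compared groups alone and 18 fits that each left out a library. Same-numbered libraries of 2 groups deviated together (r over 0.1 in 43 of 45 pairs, and in all pairs of 8 of the 9 comparisons), and 18 of 18 libraries correlated best with their own number. The numbers were taken to pair the libraries in those 8 comparisons and not between genotypes at rest, where the lowest r was 0.083. The main fit has no term for this pairing, so its p-values, SE and intervals leave it out, also in those 8 comparisons.

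The members and lists were chosen with earlier results of these data known. The text names all members, the 2 called genes of each list with the largest rise and fall in each WT stimulus comparison (mean of at least 1 RPKM in the higher group), and the 2 genes most correlated with each member. Some items that these lists and this rule hold are not reported here.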

Additional observations from a re-analysis of the deposited data

How the results depend on the processing

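No called change of a member reversed. Of 1550 log2 fold changes recomputed for the 10 genes, 1496 kept their side of the threshold, 43 lost their call and 11 gained one, and 63 changes that were never called changed sign. Calls of Pax5, Bach2, Irf4, Irf8 and Id3 against rest were lost under no alternative. In the order anti-IgM over resting (WT, Ubqln1-/-), LPS over resting and LPS over anti-IgM, asking also for a log2 fold change over 1 left 3, 3, 2, 2, 2 and 2 members called, and the thresholds of the study left 1, 1, 0, 0, 0 and 0. Leaving out 1 library at a time gave 7 to 8, 8 to 9, 5 to 8, 6 to 8, 5 to 7 and 6 to 7 members called, with 5 for LPS in WT without WT resting replicate 3, and 0 to 0 between genotypes and for the differences of responses. The replicate block and DESeq2 each called 1 member between genotypes after anti-IgM, Prdm1. The block changed no call beyond those of Prdm1, Id3 and Ebf1 given with the results. Between genotypes at rest, where the libraries share only a number, it called 0 members while taking all genes from 3 higher and 5 lower to 28 and 21, and each library correlated best with its own number, a hint from the data. After LPS it took all genes from 2 higher and 4 lower to 39 and 86. DESeq2 gave 21 and 11 at rest and 14 and 37 after LPS. The compared groups alone gave 1 higher and 1 lower after anti-IgM, in place of 12 and 2, and 1 and 1 after LPS. With 3 libraries a group, changes near a log2 of 0.3 passed or failed with single libraries, and a difference between genotypes of the size seen for Prdm1 lay at the limit of the test.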

Other observations

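Several members were followed almost exactly by Entrez genes for which the RefSeq table gave no name or which lie within the member, so reads shared with the member could not be told apart from transcription of their own. Entrez gene 100503944 had a correlation of 0.997 with Pax5 over the 18 libraries, and its count was 108% to 128% of that of Pax5 in every library. For Irf8, Entrez gene 100503115 (r = 0.998) had 18.2% to 19.7% of the count, and for Bcl6, Entrez gene 100862208 (r = 0.992) had 19.9% to 24.2%. Entrez genes 100862428 and 100862463 had identical counts, at 44.8% to 49.6% of those of Id3 (r = 0.999 for each). Bach2os, an antisense RNA at the Bach2 locus, held 6.25% to 7.67% of the Bach2 count (r = 0.984), in libraries that do not keep strand. In contrast, Entrez gene 319269, also close to Bcl6 (r = 0.990), ran from 10.5% to 117% of its count. The remaining genes named by the correlation rule were Cdk13 for Ebf1 (0.927), Nhp2 for Irf4 (0.995), Wnt10a for Spib (0.909), Sirpa for Xbp1 (0.947) and Entrez gene 100862489 for Prdm1 (0.859).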
